A study of Cavia porcellus with 30 samples.

Results

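Liver RNA of guinea pigs given the high dose of thioacetamide was compared with that of vehicle animals 33 h after dosing. These livers were taken by their dose and duration labels and come to 10 of the 30 animals of the series. Of them, 5 animals had received 100 mg/kg thioacetamide and 5 had received saline at 3 ml/kg. All were Hartley guinea pigs, an outbred laboratory breed, and each animal gave 1 poly-A enriched, stranded library. The labels name no other treatment, allele, age, sex or batch. The other 20 animals (vehicle at 9 h, 25 mg/kg at 9 h and 33 h, 100 mg/kg at 9 h) were used to estimate the spread, to set abundance classes and to choose sets of transcripts outside the animals compared. The series was made to produce different degrees of liver injury, and this comparison asks how the liver's RNA differed from that of saline animals at its highest dose and later time.

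Thioacetamide is a sulfur compound used in animals to injure the liver. It is oxidised by liver enzymes, chiefly cytochrome P450, to reactive products that bind proteins and lipids, and in laboratory rodents the cells around the central vein are known to be damaged most. The poly-A RNA of a healthy liver is dominated by a small number of very abundant transcripts, many of them for secreted plasma proteins and for metabolic enzymes, over a long tail of scarce ones. The deposited tables name transcripts by Ensembl identifier without gene symbols, and 0 of the 25824 identifiers matched the reference table used here. The results are therefore given for transcripts grouped by abundance, length, size of change and behaviour in other animals, and for 4 transcripts picked by rule. The tissue label could not be checked against marker genes.

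Library totals ran from 22595900 to 30388300 estimated counts at the high dose and from 21352800 to 31390900 in vehicle livers (6 significant digits), with means of 27211200 ± 3230000 and 27356900 ± 3940000 (SD, n = 5 each). Depth thus overlapped between the groups. The scaling factors did not: TMM factors were 1.23 to 1.43 at the high dose and 0.822 to 0.894 in vehicle livers. Counts are relative within a library, and a called rise or fall below is relative to the TMM-scaled library size. With these factors, its direction can differ from that of the transcript's plain share of RNA. In whole-liver RNA, fewer cells of a type and less RNA per cell cannot be told apart.

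The high dose changed about as many transcripts as it left uncalled. The edgeR quasi-likelihood test called 9241 of 18239 tested transcripts at a Benjamini-Hochberg adjusted p under 0.05, which is 50.7%. Of the tested transcripts 5138 rose (28.2%) and 4103 fell (22.5%). Most calls were of moderate size, with a median absolute log2 fold change of 0.84 and a median SE of 0.15 among them. At 4-fold or more, 731 transcripts rose and 383 fell. At 8-fold or more the numbers were 374 and 123, and at 16-fold or more 217 and 63, so that the lean towards rises was larger among the largest changes. Of the rises of at least 2-fold, 954 were of transcripts under 1 TPM in the vehicle livers at 9 h, against 196 of the falls; the part of low counts in this lean was not tested.

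Animals of the groups often stood fully apart. In TMM-scaled CPM, every high dose animal was above every vehicle animal for 3551 transcripts, 19.5% of those tested. Every high dose animal was below every vehicle animal for 2775, 15.2%. These numbers hold for TMM scaling, and the overlap under library totals was not tested. Among the calls, 6190 had no overlap between the groups and 3051 (33.0%) did overlap. Of transcripts that rose at least 2-fold, 1663 of 2069 had no overlap, and of those that fell at least 2-fold, 1391 of 1653 had none.

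The vehicle group of the other time gave a second control. Set against the 5 vehicle livers at 9 h, the high dose livers at 33 h differed in 8802 transcripts, 48.3% of those tested. Of the 9241 calls, 7552 (81.7%) were also called in the same direction against these other controls. The treated animals are the same in both comparisons, so this describes the choice of control and is not a second experiment.

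Change depended on how abundant a transcript was in the saline liver. Classes were set from the vehicle livers at 9 h (mean TPM of 5 animals), which are not among the animals compared. TPM is a level per transcript length whose total is the same in every library. Of 5018 tested transcripts under 1 TPM, 23.1% rose and 5.02% fell, with a median log2 fold change of 0.41. Of 7630 transcripts at 1 to 10 TPM, 2485 rose and 1471 fell, with a median of 0.12. At 10 to 100 TPM the balance turned, with 1387 rises and 1768 falls among 4668 and a median of -0.07. At 100 to 1000 TPM 63.8% fell and 13.2% rose, and the median of the 800 transcripts was -0.68. Above 1000 TPM 82.9% of 123 transcripts fell, 64 of them at least 2-fold, and 3 rose. These are falls after TMM scaling, and an abundant transcript called lower can have a higher mean TPM. ENSCPOT00000017574.1, for example, had a mean of 14128 TPM at the high dose and 11681 in vehicle livers at 33 h. Its log2 fold change after TMM was -0.37 (edgeR adjusted p = 0.022). Over all tested transcripts the median was 0.09.

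The precision also differed between the classes. The median SE of the log2 fold change was 0.59 under 1 TPM, 0.18 at 1 to 10 TPM and 0.11 at 10 to 100 TPM. The median at 10 to 100 TPM turned with the scaling. Scaled by library totals alone it was 0.54, and those of the lower classes were 1.02 and 0.73, while the median of all tested transcripts moved from 0.09 to 0.70. The medians of the classes above 100 TPM were -0.08 and -0.47. At 100 to 1000 TPM 341 transcripts then fell and 281 rose, against 510 and 106 with TMM. Above 1000 TPM 65 fell and 19 rose, against 102 and 3. Fewer calls fell with library totals, 1579 against 10360 rises, or 86.8% rises against 55.6% with TMM.

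**Figure D1:**
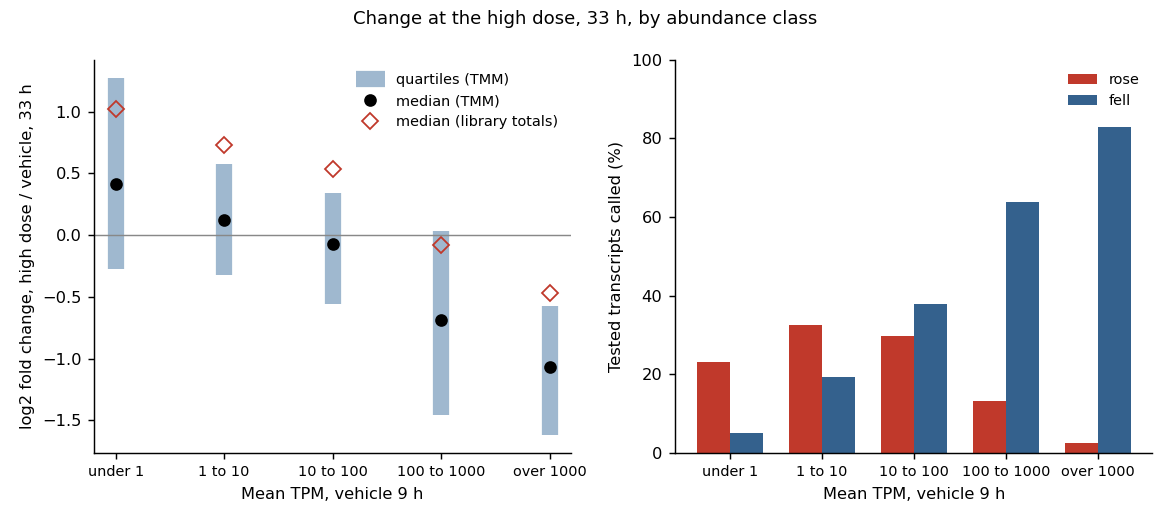
Left, the log2 fold change of high dose over vehicle livers at 33 h (vertical axis) by abundance class, the mean TPM in vehicle livers at 9 h (horizontal axis); filled points are medians and bars quartiles with TMM, open diamonds medians with library totals. Right, the percentage of tested transcripts that rose or fell in each class with TMM, where falls go from 5.02% in the class under 1 TPM to 82.9% in the class over 1000 TPM.

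The same shift was measured animal by animal, as the share of each library's counts in a class, which needs no scaling between libraries. Transcripts over 1000 TPM held 31.3%, 28.4%, 31.0%, 34.6% and 38.0% of counts in high dose animals 1 to 5. They held 41.3%, 41.9%, 46.4%, 45.0% and 43.8% in vehicle animals 1 to 5. Every high dose animal lay below every vehicle animal, and animal 5 came closest. The means were 32.7 ± 3.71% and 43.7 ± 2.13% (SD, n = 5 each), a difference of -11.0 percentage points. The exact two-sided permutation p was 0.00794, the lowest value possible with 5 animals against 5, and 0.00873 after adjustment over 11 tests.

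Less abundant transcripts held correspondingly more. The class at 10 to 100 TPM held 27.9% to 32.9% of counts at the high dose and 20.8% to 23.2% in vehicle livers, a difference of 8.68 points. The class at 1 to 10 TPM held 12.1% to 14.2% against 7.16% to 7.82%. Transcripts under 1 TPM held 1.28 ± 0.204% against 0.530 ± 0.0212% (SD, n = 5 each). None of these ranges overlapped, and each difference had the same p of 0.00794 and adjusted p of 0.00873 (exact two-sided permutation, n = 5 each). Shares within a library sum to a fixed total, so the 5 classes are not separate pieces of evidence. As shares of TPM the differences of the lower classes were smaller, at 7.09, 2.64 and 0.42 points from 10 to 100 TPM downward.

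The class at 100 to 1000 TPM held 22.1 ± 1.33% of counts with thioacetamide and 25.9 ± 1.03% with vehicle (SD, n = 5 each; exact permutation, adjusted p = 0.00873). This fall of the share was found in counts and not in TPM. As a share of TPM, which weights a transcript by its reads per length, the class was 1.06 points higher at the high dose, and that difference did not pass the test (exact permutation test, adjusted p = 0.246). No single direction is therefore given for the share of RNA held by this class.

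**Figure D2:**
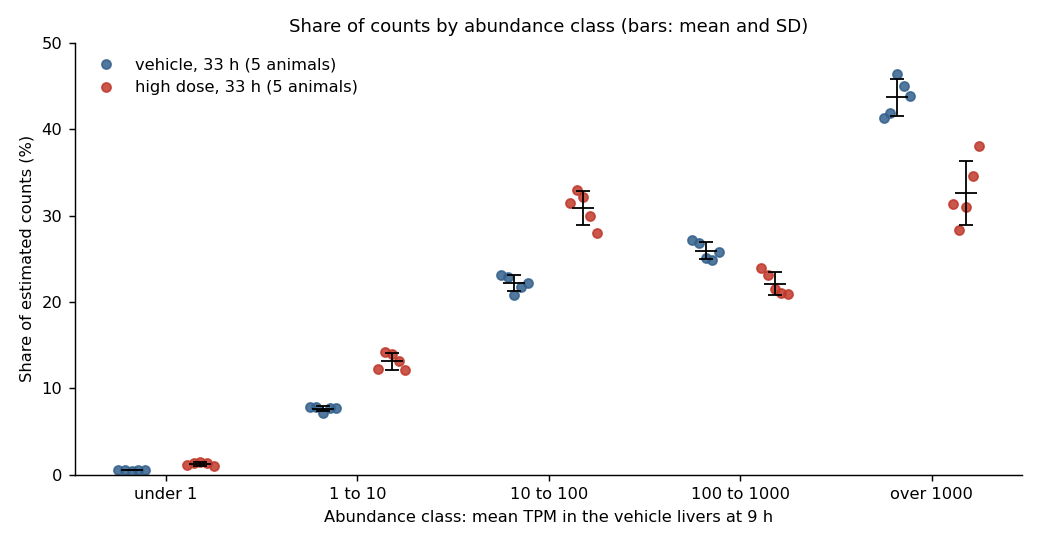
The share of estimated counts in percent (vertical axis) held by transcripts of each abundance class (horizontal axis, mean TPM in vehicle livers at 9 h) in each of 5 vehicle (blue) and 5 high dose (red) animals at 33 h, with means and SDs. The high dose points lie below the vehicle points in the 2 classes above 100 TPM and above them in the 3 lower classes.

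The loss was concentrated and the gain was spread out. Between the group means, 23.0% of all TPM, or 229893 TPM, moved from transcripts with a lower mean at the high dose to transcripts with a higher one. As few as 24 transcripts accounted for at least 50% of the TPM lost, and all 24 fell by the test, whereas 242 were needed for at least 50% of the TPM gained. These 24 together held 28.8% of TPM in vehicle livers and 17.1% in high dose livers. They were picked by the size of their loss in these same livers. Their shares and their calls therefore describe that loss and are not separate evidence for it. For scale, the sum of gains was 50989 TPM between the vehicle groups of 33 h and 9 h, which holds the spread between animals as well as any difference of time. It was 76216 TPM for the high dose at 9 h and 123229 TPM for the low dose at 33 h, each against its own vehicle group. The low dose comparison shares its vehicle animals with the one described here.

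Of the lost TPM, 99.6% lay in transcripts called lower, but 54.3% of the gained TPM lay in transcripts called higher. Losses and calls come from the same livers, and the higher TMM factors at the high dose lower a losing transcript further. The first share was therefore favoured by the scaling. Means in TPM are not TMM scaled, so a transcript can gain TPM without being called a rise after scaling, or while being called a fall. In all, 18171 transcripts had a higher and 4816 a lower mean TPM.

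Counts were spread over more transcripts at the high dose. After every library was thinned to 21352780 counts, 16667 to 17126 transcripts reached 10 counts in high dose livers and 15562 to 15871 in vehicle livers. The means were 16934 ± 177 and 15767 ± 124 (SD, n = 5 each; exact permutation p = 0.00794, adjusted p = 0.00873). The effective number of transcripts, the number of equally abundant transcripts that would give the same Shannon entropy, was 2354 ± 455 with thioacetamide and 1257 ± 130 with vehicle (SD, n = 5 each, same exact test and p). It was 2441, 2898, 2593, 2130 and 1707 in high dose animals 1 to 5 and 1384, 1396, 1094, 1196 and 1217 in vehicle animals 1 to 5. High dose animal 5 was again nearest to the vehicle animals without overlapping them. Without the 10 most abundant transcripts the difference was 1154, against 1096 with them, and in deposited TPM it was 447. Both measures come from the same counts as the class shares.

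The ranking at the top of the liver's RNA changed in part. Of the 100 most abundant transcripts of vehicle livers at 9 h, 90 to 95 were among the top 100 of each vehicle liver at 33 h, and 77 to 84 were among the top 100 of each high dose liver. For the 500 most abundant, the numbers were 460 to 478 and 348 to 409.

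The balance of directions varied less with transcript length than with abundance. The tested transcripts were put in 4 bins of equal size by length. Rises came to 27.4%, 29.9%, 31.2% and 24.2% from the shortest to the longest bin (bounds at 1473, 2537 and 4130 bases). Falls came to 22.7%, 23.3%, 22.0% and 22.0%. The median log2 fold changes of the bins ran from 0.04 in the longest to 0.14 in the third, against 0.09 over all tested transcripts. Length went with abundance, with a median of 8.42 TPM in the shortest bin and 2.19 in the longest (vehicle livers at 9 h). The part of each was not tested.

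Each of the 5 high dose animals departed from the vehicle livers, to different extents. On log2 CPM over the tested transcripts, 2643 to 3624 transcripts were at least 2-fold above the vehicle mean in a high dose animal and 1771 to 2838 at least 2-fold below it. A vehicle animal set against the other 4 had 940 to 1083 above and 942 to 1250 below, which is the level that spread between animals and low counts give. Animal 3 was farthest, with 3624 higher and 2838 lower, and animal 5 nearest, with 2643 and 1771. The root mean square distance from the vehicle mean was 1.38 in animal 3 and 1.08 in animal 5, against 0.769 to 0.846 for vehicle animals from each other (log2 units). No vehicle animal reached the high dose range on any of these measures.

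The order of the animals was not the same in every measure. For the 123 transcripts over 1000 TPM, the median log2 difference from the vehicle mean was -0.98, -1.26, -1.06, -1.16 and -1.03 in high dose animals 1 to 5. Animal 5, nearest to vehicle over all transcripts, was thus within the range of the others here. In the share of counts held by the same class, 38.0%, it was the nearest to vehicle. The median log2 difference ran from -0.06 to 0.18 in the vehicle animals. The first principal component of the 10 libraries held 44.5% of the variance and separated the groups, with scores of 44.8 to 98.6 at the high dose and -78.6 to -65.5 in vehicle livers.

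The spread within each group was also measured. For the 11238 transcripts at a mean log2 CPM of at least 2 in vehicle livers, the median SD of log2 CPM was 0.23 at the high dose and 0.19 in vehicle livers. A range of at least 4-fold within the group was found for 250 of them at the high dose and 213 in vehicle livers. Over all tested transcripts, scarce ones included, the order was the other way, with 2296 at the high dose and 2652 in vehicle livers. The median SD over all tested transcripts was 0.30 at the high dose and 0.27 in vehicle livers. The limit of log2 CPM was set on vehicle livers alone. It keeps transcripts that became scarce at the high dose and leaves out those scarce only in vehicle livers. Over all tested transcripts, the root mean square distance of an animal from the other 4 of its group was 0.664 to 0.809 at the high dose. In vehicle livers it was 0.769 to 0.846 (log2 units). The SDs, ranges and distances are given without a test.

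**Figure D3:**
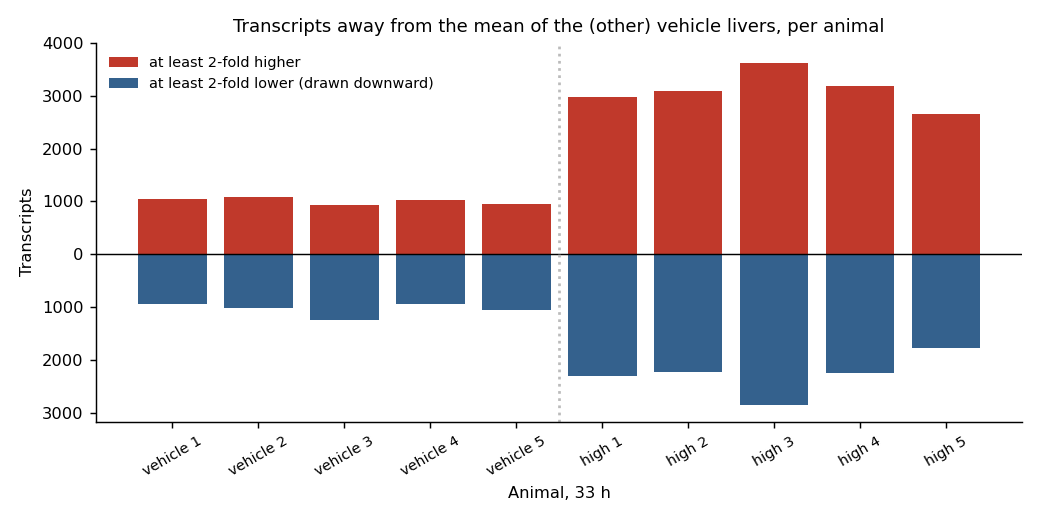
For each animal at 33 h (horizontal axis), the number of tested transcripts at least 2-fold above (red, upward) or below (blue, downward) the mean log2 CPM of the vehicle livers, leaving the animal itself out of that mean. High dose animals have 2643 to 3624 transcripts above and 1771 to 2838 below; vehicle animals have at most 1083 and 1250.

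Transcripts that had changed in other animals were followed into this comparison. One pair of sets came from the high dose at 9 h against its vehicle group, where 2469 transcripts were higher (13.5% of those tested) and 2327 lower (12.8%). Another pair came from the low dose at 33 h against the vehicle livers at 9 h, where 2064 were higher (11.3%) and 1666 lower (9.13%). The second contrast mixes dose with time, and was used because it shares no animal with the comparison described here. Both pairs share the vehicle animals at 9 h with each other, and all contrasts come from 1 model.

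Transcripts that moved at the low dose mostly moved the same way at the high dose. Of the 2064 higher ones, 1582 (76.6%) rose at the high dose at 33 h and 36 fell, beside 28.2% rises over all tested transcripts. Of the 1666 lower ones, 1302 (78.2%) fell and 29 rose, beside 22.5% falls overall. The median log2 fold change at the high dose was 0.77 in the first set and -0.85 in the second.

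Early changes carried over less evenly. Of the 2469 transcripts higher at 9 h, 1464 (59.3%) rose at 33 h and 163 fell, with a median log2 fold change of 0.70. Of the 2327 lower at 9 h, 988 (42.5%) fell at 33 h while 372 rose, with a median of -0.20. Over all tested transcripts 28.2% rose and 22.5% fell. The share of rises was thus above that background in the set of early rises and below it in the set of early falls. The share of falls was below it among early rises and above it among early falls. With library totals the share of falls was lower, 15.5% in a set of early falls chosen with the same scaling. Falls over all tested transcripts were then fewer as well, 1579 against 4103 with TMM. The shares under the different scalings thus stand against unlike backgrounds.

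Many of the changes at 33 h were called in neither set. Of the 5138 rises, 2629 (51.2%) were in neither, 537 in both, 927 in the 9 h set alone and 1045 in the low dose set alone. Of the 4103 falls, 2214 (54.0%) were in neither, 401 in both, 587 in the 9 h set alone and 901 in the low dose set alone. A missing call in those other animals does not show that the transcript had not changed there.

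**Figure D4:**
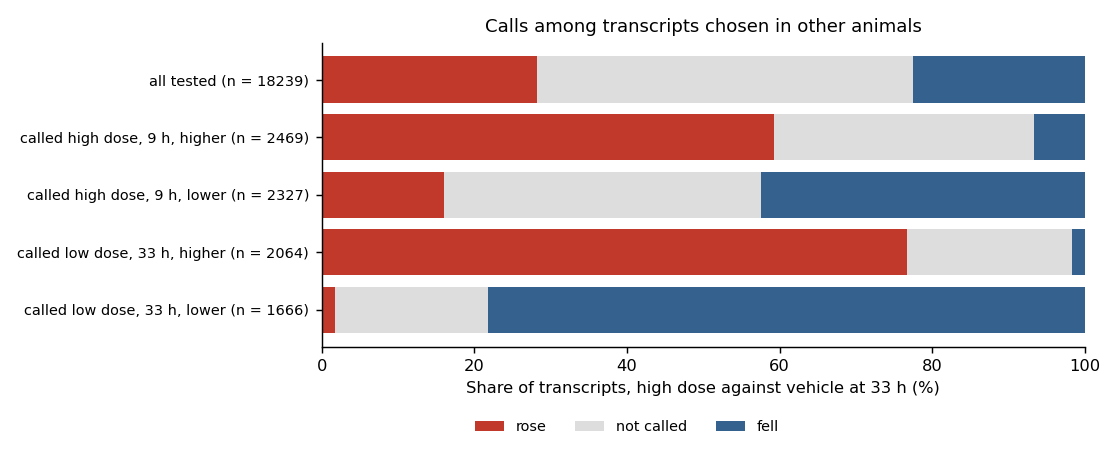
The percentage of transcripts that rose, fell or were not called in high dose against vehicle livers at 33 h (horizontal axis), for all 18239 tested transcripts and for 4 sets chosen in other animals (the low dose sets against vehicle livers at 9 h). Rises make up 76.6% of the set higher at the low dose and falls 78.2% of the set lower at the low dose.

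The shares of counts held by these sets were compared per animal. Transcripts lower at the low dose held 28.3% to 33.5% of counts in high dose livers and 47.6% to 49.6% in vehicle livers, a difference of -18.2 points. The set higher at the low dose held 14.1 ± 1.44% against 5.63 ± 0.442% (SD, n = 5 each). The set higher at 9 h held 10.2% to 13.7% against 5.34% to 5.88%. Each difference separated all animals (exact two-sided permutation, n = 5 each, p = 0.00794 and 0.00873 after adjustment). The set lower at 9 h held 8.44 ± 0.265% and 8.13 ± 0.321% (SD, n = 5 each), a difference that did not pass the test (exact permutation p = 0.159). Restriction to transcripts at least 2-fold changed left fewer transcripts to hold counts, so its differences cannot be set against those of the full sets. They were -1.01 points for the set lower (204 of 1666 transcripts) and 1.97 for the set higher at the low dose (509 of 2064). At 9 h they were 2.496 for the set higher (1210 of 2469) and -0.38 for the set lower (280 of 2327). The last of these turned its direction and passed (exact permutation test, adjusted p = 0.00794). Without the 10 most abundant transcripts the set lower at the low dose differed by -13.5 points.

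The 4 named transcripts were picked from calls in which the groups did not overlap in TPM. They are the rise and the fall with the largest difference of mean TPM, and the rise and the fall with the largest fold change among transcripts at 1 TPM or more in each of the 10 libraries. Their separation between the groups is therefore part of the rule. What each encodes is not given in the sources used here, and kallisto splits reads between transcripts of like sequence, so a change in 1 identifier can be a change in that split.

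ENSCPOT00000012970.3, of 396 bases, lost the most TPM. It measured 11530, 6843, 5432, 9860 and 13414 TPM in high dose animals 1 to 5. In vehicle animals 1 to 5 it measured 33106, 31113, 36597, 40119 and 33084 TPM. The highest treated animal, animal 5, was thus far under the lowest vehicle animal. The means were 9416 ± 3284 and 34804 ± 3568 TPM (SD, n = 5 each). The log2 fold change after TMM was -2.52 ± 0.22 (SE, edgeR adjusted p = 5.39e-10). At the low dose at 33 h its level lay between these, at 20294 ± 4934 TPM (SD, n = 5). Against the same vehicle animals that is a log2 change of -1.15 ± 0.21 (SE, edgeR adjusted p = 0.00023). At 9 h the high dose livers held 33075 ± 3035 TPM and their vehicle livers 32823 ± 5452 TPM (SD, n = 5 each), and the transcript was not called there (edgeR adjusted p = 0.768).

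ENSCPOT00000014732.3, of 792 bases, had the largest fold rise among transcripts detected at 1 TPM or more in all 10 livers. It measured 1641, 855, 2038, 1606 and 297 TPM in high dose animals 1 to 5, a 6.86-fold spread among animals of 1 group. In vehicle animals 1 to 5 it measured 2.03, 2.61, 4.23, 2.26 and 2.88 TPM. The lowest high dose animal, again animal 5, stood far above all vehicle animals. The log2 fold change was 8.20 ± 1.03, or 295-fold (SE, edgeR adjusted p = 1.80e-07). Vehicle livers at 9 h held 2.39 to 33.1 TPM, overlapping those at 33 h (edgeR adjusted p = 0.332 between the vehicle groups). Against them the log2 fold change was 6.24 ± 0.92 (SE, edgeR adjusted p = 2.66e-06). High dose livers at 9 h held 8.99 to 31.8 TPM, within the range of their vehicle livers. Low dose livers at 33 h ran from 9.14 to 370 TPM, 1 of them above the lowest high dose liver.

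ENSCPOT00000036096.1, of 1799 bases, had the largest fold fall under the same condition. It measured 1.42, 1.02, 1.87, 1.55 and 1.01 TPM in high dose animals 1 to 5. In vehicle animals 1 to 5 it measured 20.2, 31.9, 15.2, 18.7 and 19.0 TPM. The log2 fold change was -4.55 ± 0.43, a level 23.5-fold lower (SE, edgeR adjusted p = 1.71e-09). Against the vehicle livers at 9 h it was -3.65 ± 0.42 (SE, edgeR adjusted p = 6.02e-08). The low dose livers were about as low as the high dose livers, at 1.93 ± 1.76 TPM against 1.37 ± 0.368 TPM (SD, n = 5 each), and their ranges of 0.426 to 4.88 and 1.01 to 1.87 TPM overlapped. Livers at 9 h held 15.4 ± 2.51 TPM at the high dose and 11.6 ± 1.82 TPM with vehicle (SD, n = 5 each), and it was not called there (edgeR adjusted p = 0.366).

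ENSCPOT00000037664.1 gained the most TPM. It is a short transcript of 132 bases, so few counts give many TPM. It measured 7071, 5601, 7484, 5650 and 4299 TPM in high dose animals 1 to 5, from 2488 to 4074 estimated counts. In vehicle animals 1 to 5 it measured 1633, 1580, 1241, 1524 and 1247 TPM, from 622 to 944 estimated counts. The log2 fold change after TMM was 1.45 ± 0.20, or 2.73-fold (SE, edgeR adjusted p = 6.34e-07). Unlike the other 3, it was already called higher at the high dose at 9 h, at 3344 ± 558 against 1424 ± 136 TPM (SD, n = 5 each). The log2 change there was 1.30 ± 0.20 (SE, edgeR adjusted p = 1.11e-05). The difference between the effects of the 2 times, 0.15 ± 0.27 in log2 units, was not called (SE, edgeR adjusted p = 0.724), whereas it was called for the other 3. Picking the transcripts on their 33 h values favours such a difference.

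**Figure D5:**
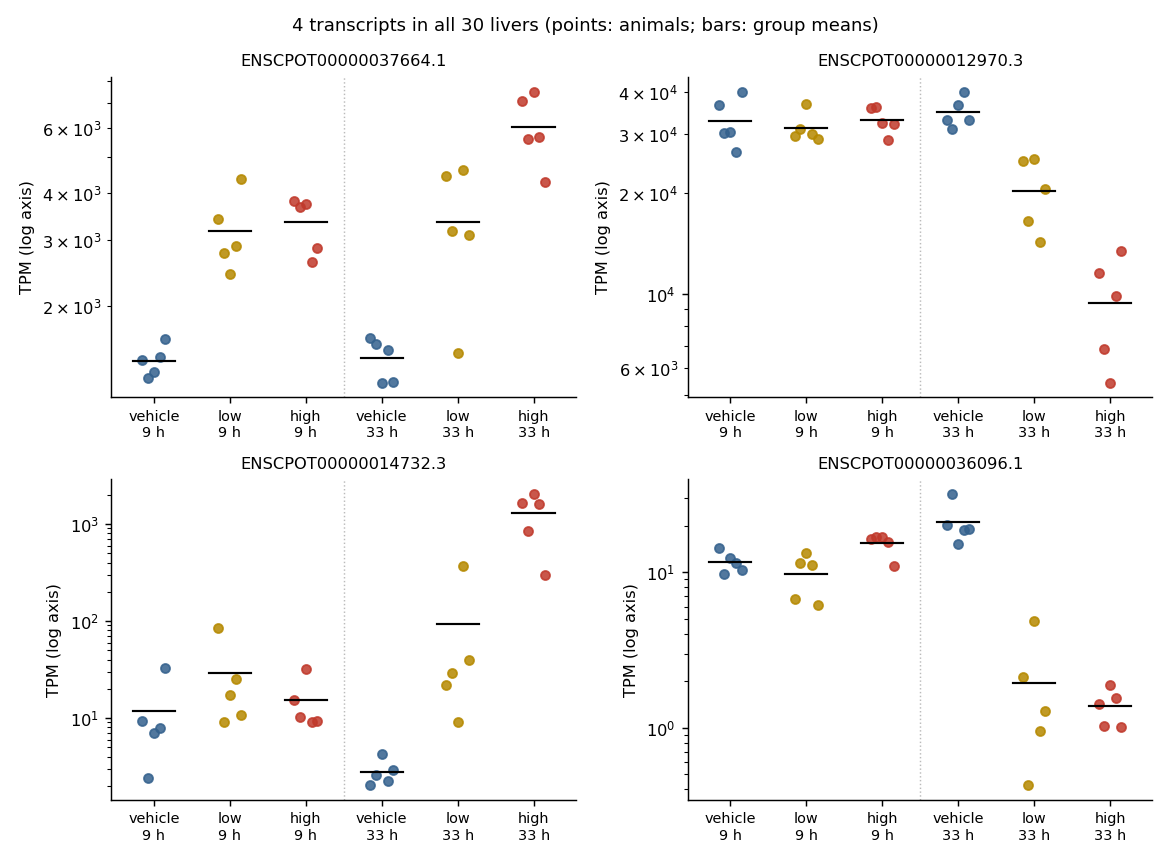
TPM on a log axis (vertical) of the 4 named transcripts in all 30 livers, grouped by dose and time (horizontal), with 1 point per animal and a line at each group mean. At 33 h ENSCPOT00000012970.3 falls from 34804 to 9416 TPM and ENSCPOT00000014732.3 rises from 2.80 to 1287 TPM between vehicle and high dose means.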

How the data were processed

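Liver RNA of 30 guinea pigs was measured, with 5 animals in each of 6 dose and time groups taken from the labels; the series design describes separate animals. The authors quantified reads with kallisto 0.42.4, per the submitters' processing notes; the transcript set is not given in the sources used here. The authors deposited estimated counts, which carry no normalization, and TPM, which are scaled by effective length to a fixed total, per the file headers. Identifiers and order were the same in all 30 tables. No pair of libraries of a group compared here agreed within counting noise (chi-square per degree of freedom of 37.9 to 190 over 20 pairs, transcripts with at least 50 counts).

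Estimated counts were rounded and fitted with edgeR 4.0.16 in R 4.3.3: filterByExpr by group (minimum count 10, minimum total 15), TMM, and 1 robust quasi-likelihood model with 1 coefficient per group over all 30 libraries (24 residual degrees of freedom). The tested transcripts held at least 99.95% of each library's counts. Fitted fold changes include a prior count of 0.125. CPM and log2 CPM were TMM scaled, and log2 CPM used a prior count of 2. SEs were taken as |log2 fold change| divided by the root of the F statistic. On simulated counts of this comparison, with 200 of 17095 tested transcripts changed, the model recovered 25.4%, 64.2% and 87.9% of those changed 1.5-fold, 2-fold and 4-fold, with 2 false calls among 120. All simulated libraries otherwise shared the mean profile of the vehicle livers at 33 h. The broad shift between the groups was therefore absent, and these rates need not hold for the data. Values per animal were tested by exact two-sided permutation of the animals' labels, adjusted over 11 tests.

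The comparison, the classes and the rules were chosen with earlier results of these data known. Named transcripts have an adjusted p under 0.05, no overlap between groups, and the largest TPM difference or fold change. The planned gene lists and cell type markers need gene symbols and were not run. The alternatives included DESeq2 1.42.0 and limma voom (limma 3.58.1). The closing section gives the range of calls over the alternatives and the results that moved under them.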

Additional observations from a re-analysis of the deposited data

Results flagged for a closer look

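In vehicle animal 3 at 33 h, the share of counts of the class at 1 to 10 TPM was 7.16%, apart from the other 4 vehicle animals at 7.73% to 7.82%. The same animal had a median log2 difference of 0.18 over the transcripts above 1000 TPM, against -0.06 to -0.02 in the other 4. These were 2 of 42 groups of 5 values examined, and chance alone gives about 1 in 20. The high dose effect differed between 33 h and 9 h for 3 of the 4 named transcripts, by -2.63 for ENSCPOT00000012970.3, 7.73 for ENSCPOT00000014732.3 and -5.04 for ENSCPOT00000036096.1 on the log2 scale (edgeR quasi-likelihood test of the difference, adjusted p of 2.15e-07, 1.77e-05 and 1.08e-07). The transcripts were picked for large changes at 33 h, and this test uses the same 33 h values. The choice therefore favours a difference, and the p-values do not allow for it.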

How the results depend on the processing

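The number of calls was 8124 to 11939 over the 11 alternatives other than leaving out an animal, and 8590 to 9332 without single animals. Each of the 4 named transcripts was called in the same direction in all 21 alternative fits. They were picked for large changes without overlap in the same livers, so this is not separate evidence for them. Rises were 52.5% of calls with median of ratios size factors, 52.5% with DESeq2, 51.6% with only the 10 libraries compared and 54.4% with vehicle at 9 h as control. For the class at 1 to 10 TPM the medians under those 4 settings were 0.088, 0.089, 0.082 and 0.093. Library totals gave 86.8% rises, 5362 rises and 682 falls of at least 2-fold, and class medians of 1.02, 0.73, 0.54 (reversed), -0.083 and -0.47 from the lowest to the highest class. They gave 10360 rises and 1579 falls over all tested transcripts. Of the sets, 82.3%, 15.5%, 89.2% and 72.5% were called the same way (9 h higher, 9 h lower, low dose higher, low dose lower). With sets of at least 2-fold these shares were 49.6% for 9 h lower, 78.8% for low dose higher and 65.7% for low dose lower. In deposited TPM the class at 100 to 1000 TPM reversed to 1.06 points (adjusted p = 0.246), and the set lower at 9 h passed at 0.27 points (adjusted p = 0.0317). With sets of at least 2-fold the latter reversed to -0.38 points (adjusted p = 0.00794). The p-values per animal are from exact permutation tests. The cause of these shifts was not tested. With 5 counts in place of 10, 20 transcripts in place of 13 were at 0 in each vehicle animal. No paired analysis was possible because the labels give no number that links animals of different groups. Low counts limit the class under 1 TPM, where the median SE was 0.59.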

Other observations

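Some transcripts were found in 1 group only. In the vehicle livers at 33 h 4107 of the 25824 transcripts were at 0 in all 5 animals, against 3390 in the high dose livers. At least 10 counts in each high dose animal and 0 in each vehicle animal were found for 13 transcripts, and 11 of these had a count in at least 1 vehicle liver at 9 h. The converse, 0 in each high dose animal and at least 10 counts in each vehicle animal, held for 1 transcript. A count of 0 allows up to 3 counts in a library, and this limit covers counting error only.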
